A study of Homo sapiens with 16 samples.

Results

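Lipid-associated macrophages are tumor or tissue macrophages named for a shared program of lipid handling. Described here are 10 genes of that program, Apoe, Trem2, Lpl, Abca1, Fabp5, Plin2, Gpnmb, Spp1, Cd9 and Lgals3, among the 32285 mouse genes counted. They were taken by name, as genes commonly used to mark such macrophages. TREM2 is a surface receptor that binds lipids and lipoproteins and signals through the adaptor encoded by Tyrobp. Apolipoprotein E (Apoe) carries cholesterol and other lipids, lipoprotein lipase (Lpl) frees fatty acids from triglycerides, and ABCA1 moves cholesterol out of the cell. FABP5 is a chaperone of fatty acids, and PLIN2 coats lipid droplets. GPNMB is a membrane glycoprotein of lipid-laden macrophages, osteopontin (Spp1) a secreted ligand of CD44 and integrins, CD9 a tetraspanin, and galectin-3 (Lgals3) a lectin that binds galactosides. In macrophages the receptor, the carrier and the efflux pump belong to the route by which lipid from dying cells is taken in and passed on.

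The cells came from mouse mammary tumors of 2 transplant models, LPA1-T22 and LPA1-T127, which the study contrasted as sensitive (T22) and resistant (T127) to inhibition of the DNA repair enzyme PARP. Female FVB mice, bought at 6 weeks of age, received tumor chunks of 25 mm3 in the mammary fat pad and were given vehicle or the PARP inhibitor olaparib by mouth at 50 mg/kg daily. Droplet capture gave counts of unique molecular identifiers (UMIs, 1 per captured 3′ mRNA end) for each cell. In the short-term experiment T22 tumors and T127 tumors were captured apart from each other after 4 or 8 days of vehicle or olaparib, in 4 pools of tagged tumors each. In the long-term experiment 8 pools held tumors of both models after 20 days, from mice with 1 model or with T22 and T127 in opposite fat pads, where the T22 chunk had been placed 14 days ahead. Mice were assigned to treatment 14 days after transplantation of T22 and 10 days after that of T127. No file used here ties a cell to its tumor, so each pool mixes vehicle and olaparib, and neither treatment nor co-transplantation was compared.

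Pools are captures of tagged tumors, and the labels do not say which tumors, or in the long-term experiment how much of each model, a pool holds. Pool ranges are therefore not the spread between animals, and no p-value was computed. Levels are UMIs of a gene summed over the cells of a deposited label, per 1000000 UMIs of those cells (CPM), with the lowest and highest pool, and 95% intervals are exact and cover counting error only. A gene was counted as higher or lower where the summed levels differed by at least 2-fold and the pool ranges did not overlap, among genes with a mean of at least 10 CPM in the labels compared. In bulk sums of this kind fewer positive cells and less RNA per cell look alike, and levels of different genes are not compared because 3′ capture differs between them. T22 and T127 were captured in pools of their own, so model and capture cannot be told apart.

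The long-term pools held 30845 cells with pool medians of 3105 to 11712 UMIs, the T22 pools 15094 cells (7730 to 8528 UMIs) and the T127 pools 8007 cells (22712 to 26017 UMIs). Long-term pools 1 and 2 shared 3939 cell barcodes, pools 1 and 3 shared 987, and pools 2 and 3 shared 1082, against 1 to 8 for the other long-term pairs. With the deepest copy of each barcode kept, 25723 long-term cells remained. The 7 deposited labels of monocytes and macrophages held 15451 long-term, 7861 T22 and 2200 T127 cells. Of 7 macrophage markers (Adgre1, Csf1r, C1qa, C1qb, C1qc, Cd68 and Fcgr1), 7 lay above 10 CPM in Macro-M1, Macro-M2, Macro-MKI67, Macro-others and CD16-CDKN1C wherever these were analysed, with a summed level in Macro-M2 of 20903 CPM long-term, 13462 in T22 and 8465 in T127. CD14-IL1B held less of them (5345, 1669 and 885 CPM). Its Epcam level was 992 CPM long-term, 167 in T22 and 636 in T127, against 85.3, 48.8 and 144 in Macro-M2. The source of that Epcam RNA was not tested. CD14-PF4, a small label, also carried epithelial keratins, with Krt18 at 647 CPM long-term, 170.5 in T22 and 85.1 in T127, against 19.3, 3.95 and 6.68 in Macro-M2. Macro-M1 held 982 long-term and 1203 T22 cells and 3 T127 cells, too few to compare.

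**Figure D1:**
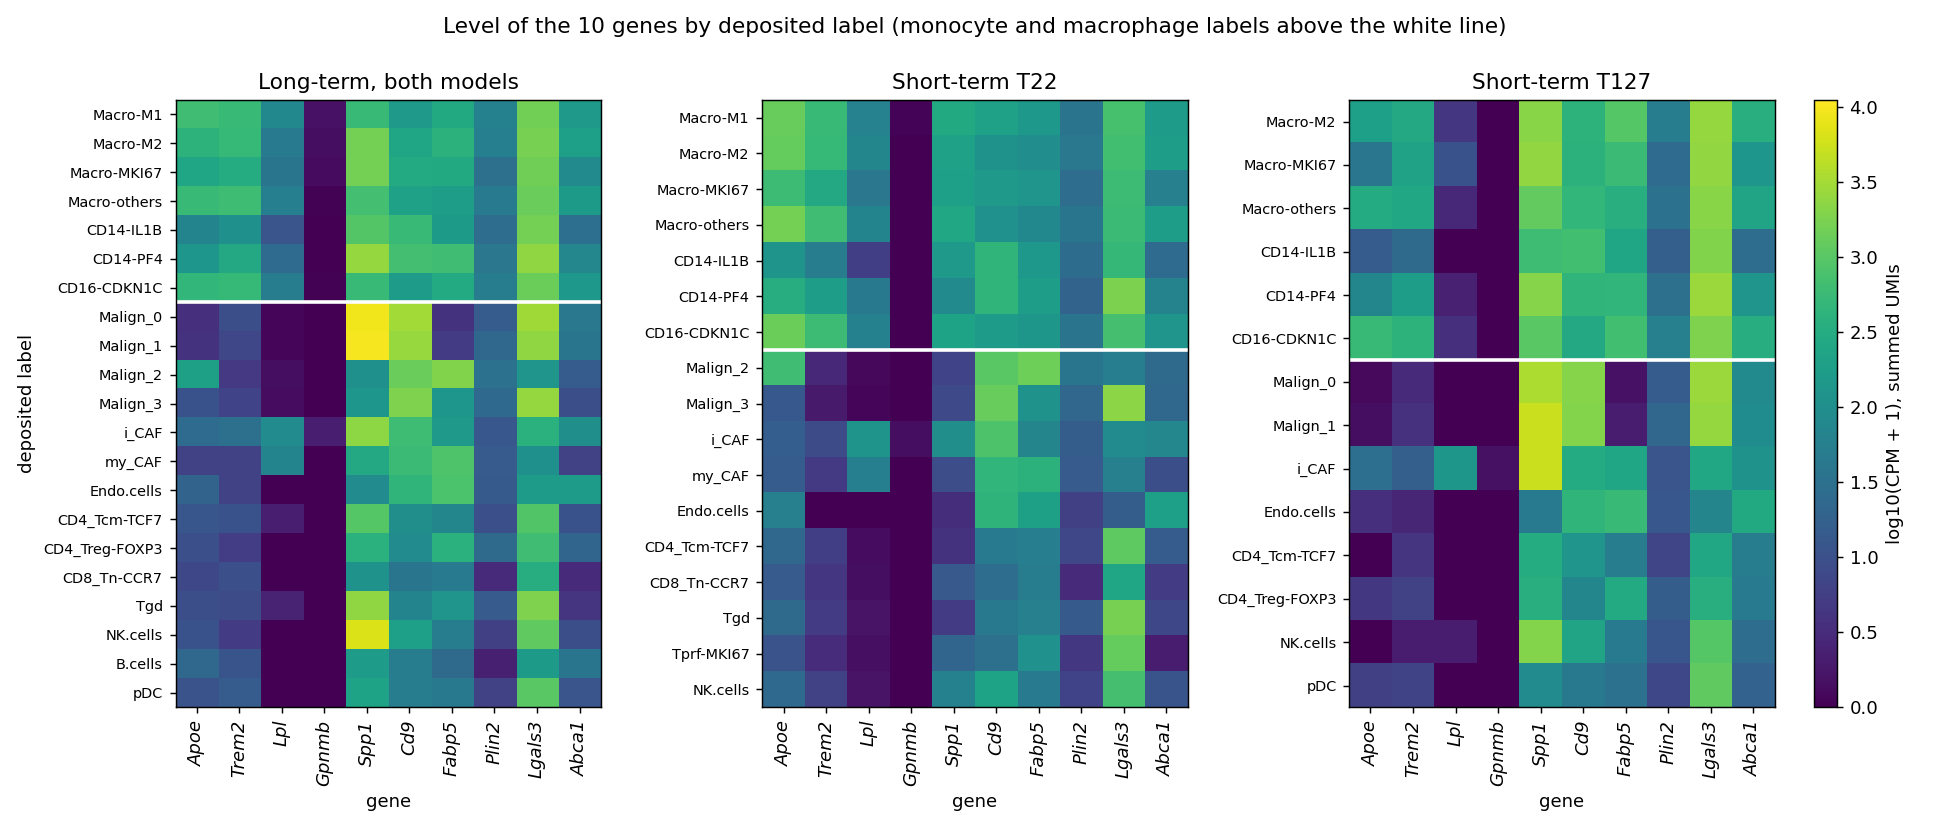
Level of the 10 genes (columns) in each deposited label with at least 50 cells (rows), as log10(CPM + 1) of UMIs summed over all pools of an experiment, 1 panel per experiment, with monocyte and macrophage labels above the white line. Trem2 is bright mainly above the line, Apoe also in T22 Malign_2 and Abca1 also in Endo.cells, Spp1, Cd9 and Lgals3 are bright in malignant labels too, and Gpnmb is dark throughout.

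The set split by where its RNA lay. In the long-term pools monocytes and macrophages held 46.8% of all UMIs and malignant cells 45.8%. Of the receptor gene Trem2, 98.2% of the UMIs lay in monocytes and macrophages (pools 97.9 to 98.5%). The carrier gene Apoe followed with 92.3% (pools 90.1 to 94.0%), the lipase gene Lpl with 87.7%, the efflux pump gene Abca1 with 79.1% and the droplet coat gene Plin2 with 69.8%. These 5 genes were concentrated in the myeloid labels beyond the share of UMIs those labels held. Malignant cells held the largest part of Cd9, Spp1, Lgals3 and Fabp5, with 89.7%, 84.0%, 58.6% and 51.6% of their UMIs. For Fabp5 the pools ran from 40.8 to 57.4%, near the malignant share of all UMIs. Fibroblasts held 11.9% of the Lpl UMIs with 3.72% of all UMIs.

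The division moved with the model, as did the share of all UMIs, of which malignant cells held 31.8% in T22 and 84.1% in T127 and monocytes and macrophages 39.5% and 12.6%. In T22, monocytes and macrophages held 89.7% of the Spp1 UMIs and malignant cells 1.75%, and in T127 malignant cells held 92.6%, little above their share of all UMIs. They also held 72.7% of the Plin2 and 66.8% of the Abca1 UMIs of T127, less than that share. Fabp5 went the other way, with 85.3% of its UMIs in the malignant cells of T22 and 92.0% in the monocytes and macrophages of T127. Malignant cells of T22 also held 27.0% of the Apoe UMIs, those of T127 1.13%. The malignant labels themselves carried these differences. Spp1 reached 9301 CPM in Malign_0 and 10019 in Malign_1 long-term and 3626 and 5398 in T127, but 5.64 and 6.87 in the T22 labels Malign_2 and Malign_3. Apoe stood at 645 CPM and Fabp5 at 1427 in T22 Malign_2, against 0.266 and 0.553 in T127 Malign_0. Of Lpl, 71.4% of the T127 UMIs lay in fibroblasts, whose label i_CAF held 137 CPM in T127 and 126 in T22.

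**Figure D2:**
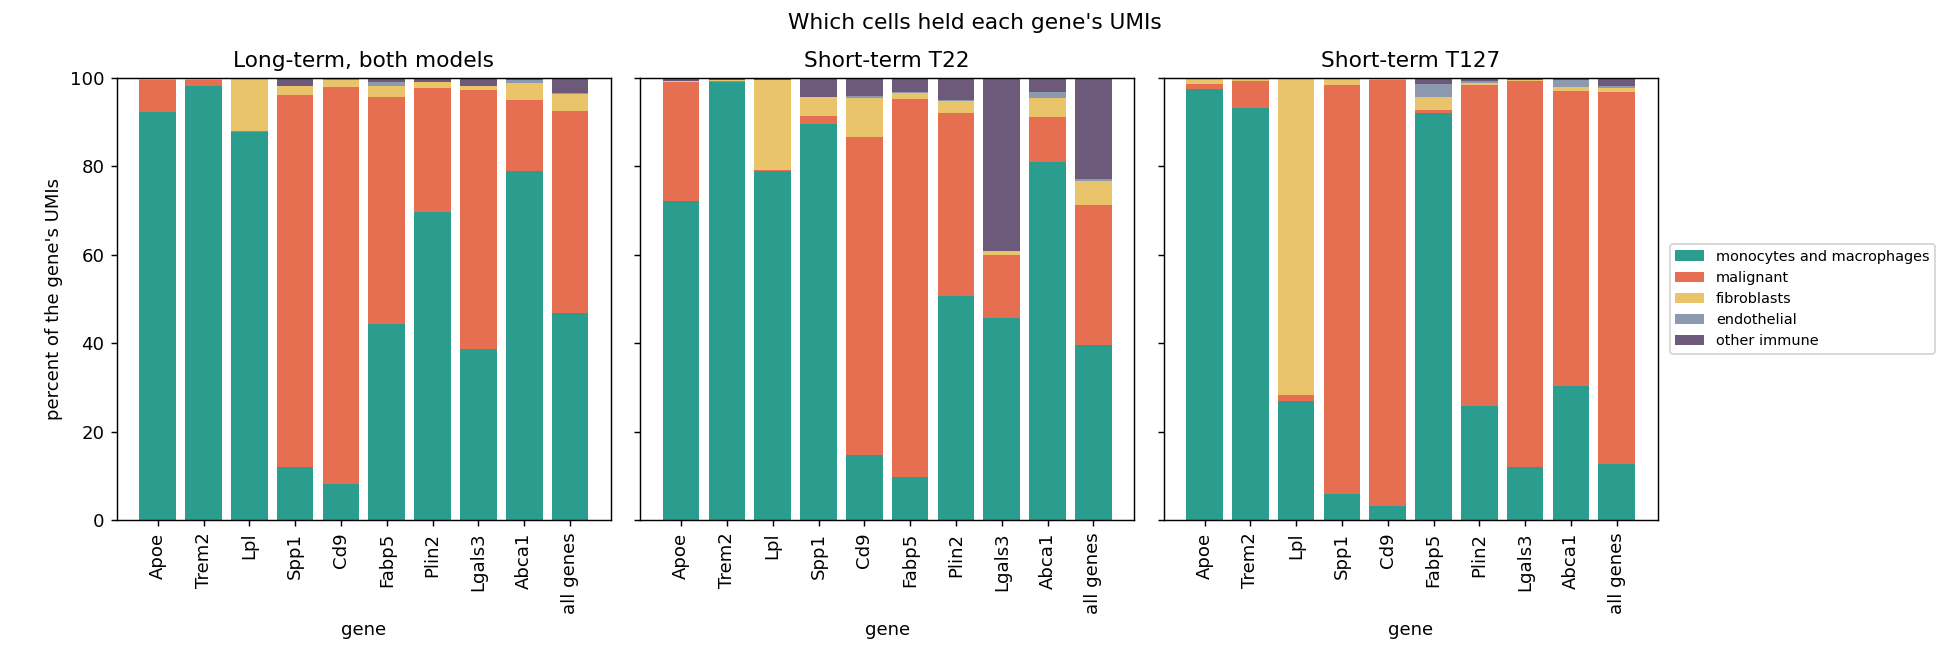
Percent of each gene's UMIs that lay in each class of cells (stacked bars, 1 panel per experiment), beside the same for all genes together. Trem2 is almost wholly myeloid in the 3 experiments, while Spp1 is mostly malignant long-term and in T127 and mostly myeloid in T22.

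Gpnmb was all but undetected. Its level over the 7 labels was 0.203 CPM long-term (29 UMIs in 15451 cells), 0.0304 CPM in T22 and 0 in T127, where a count of 0 allows up to 0.140 CPM (the upper end of the exact interval). It failed the 10 CPM floor in the comparisons run, so 9 of the 10 genes entered most of them. The label with the highest Gpnmb level was i_CAF, with 1.23 CPM long-term.

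Among the long-term labels Apoe, Trem2 and Lpl shared 1 gradient, from the Macro labels and CD16-CDKN1C down to the CD14 labels. Apoe measured 388, 607 and 944 CPM in the lowest, median and highest pool of Macro-M1, 350.1, 533 and 689.9 in Macro-others and 311, 441 and 582 in Macro-M2. Those pool ranges overlapped, as did those of each of the 6 neighbouring pairs in the order of the 7 labels. At the low end CD14-IL1B held 15, 57.2 and 116 CPM, below each pool of the Macro labels. Trem2 was highest in Macro-others (547, 630.3 and 645 CPM) and lowest in CD14-IL1B (58.5, 92.4 and 175 CPM). Its order matched that of Apoe apart from Macro-M1 and Macro-others, whose ranges overlapped. Lpl stood at 65.8, 76.4 and 112 CPM in Macro-M1 and 0, 8.52 and 22.6 in CD14-IL1B. Abca1 was highest in Macro-M2 (155, 189 and 288 CPM) and again lowest in CD14-IL1B (10.0, 22.1 and 49.7 CPM). Plin2 spanned the narrowest range of these 5 genes, from 26.9 CPM in CD14-IL1B to 58.2 in Macro-M1.

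CD14-PF4 was the highest of the 7 labels in Spp1, Cd9, Fabp5 and Lgals3, and below it the order of the labels differed from gene to gene. Spp1 reached 2608 CPM in CD14-PF4 (pools 295 to 6141) and 1573 in Macro-M2, and was lowest in Macro-M1 at 560.2. Cd9 measured 696 CPM in CD14-PF4, 534 in CD14-IL1B and 155 in Macro-M1. These 4 genes are also the ones richest in malignant cells, and CD14-PF4 is the label that carried keratins. The part of malignant RNA in its long-term levels was not tested. Lgals3 spanned 1317 CPM in Macro-others to 2409.8 in CD14-PF4, under 2-fold, and differed in 0 of the 21 pairs of labels by the rule. Over those 21 pairs, in which 5.73% of all genes were counted on average in either direction, Apoe was counted in 11, Cd9 in 8, Trem2 in 7, Abca1 in 6, Lpl and Spp1 in 5 each, Fabp5 in 2 and Plin2 in 1.

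Macro-M2 and Macro-M1, which the deposited names set apart as opposite activation states, differed in 1 of the 9 genes compared. Spp1 measured 1109, 1425 and 2503 CPM in the lowest, median and highest pool of Macro-M2 (3567 cells) and 219.5, 590.2 and 1059.9 in Macro-M1 (982 cells). The pool ranges lay apart by a narrow margin, and the summed level was 2.81-fold (95% interval 2.74 to 2.88) higher in Macro-M2. Of all genes, 2.03% were counted as higher in Macro-M2 and 0.0602% as lower, and the median log2 ratio was 0.13 for the 9 genes and 0.09 for all. Of the markers found in malignant cells, Krt8 stood at 15 CPM in Macro-M2 and 15.6 in Macro-M1 and Krt18 at 19.3 and 16.8. Dcn, at 4305 CPM in the Spp1-rich Malign_0, stood at 56.2 and 28.1. Epcam stood at 85.3 and 47.1 and Cdh1 at 21.2 and 6.46. Malign_0 held only 3.30 CPM of Epcam and 0.560 of Cdh1, so these do not trace its RNA. The part of malignant RNA in the Spp1 difference was not tested. The central memory CD4 T cell label CD4_Tcm-TCF7 held 970.1 CPM of Spp1 (pools 136 to 7313), more than Macro-M1, and the part of free RNA in these levels was not tested. Model make-up moved with the pair too, since short-term Macro-M1 held 1203 T22 and 3 T127 cells and short-term Macro-M2 670 and 1174, with 208 CPM of Spp1 in the T22 and 2156 in the T127 cells of Macro-M2. In pools that mix the models, label and model cannot be told apart. Without the deepest 5% of cells of each pool the ranges touched and Spp1 was no longer counted. Monocyte markers moved with the same pair, their summed level being 1414 CPM in Macro-M2 (pools 544 to 3279, 5 of 5 markers above 10 CPM) and 119 in Macro-M1 (pools 59.6 to 300.1, 4 of 5), and their part in the difference was not tested.

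The other 8 genes stayed within 2-fold between the pair. Apoe leaned to Macro-M1, at 649.5 CPM against 422, with overlapping pools. Lpl was 1.62-fold (95% interval 1.5 to 1.76) higher in Macro-M1, with pools of 65.8 to 112 CPM against 33.0 to 63.1 that did not overlap. Trem2 stood at 512 CPM in Macro-M2 and 563 in Macro-M1, and Plin2 at 54.7 and 58.2.

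Against Macro-others, Macro-M2 was higher in Spp1 and in Fabp5, when 1.64% of all genes were higher and 0.548% lower. Fabp5 measured 270.3, 376 and 536 CPM in Macro-M2 and 148, 183 and 229.5 in Macro-others, with no overlap, and was 2.13-fold (95% interval 2.07 to 2.18) higher. Against CD14-IL1B, 5 genes were higher in Macro-M2 and 1 lower, with 6.31% and 3.35% of all genes. Abca1 was 6.62-fold (95% interval 5.72 to 7.71) higher in Macro-M2, Apoe 6.41-fold (95% interval 5.81 to 7.09), Trem2 4.72-fold (95% interval 4.37 to 5.10), Lpl 4.40-fold (95% interval 3.46 to 5.70) and Fabp5 2.51-fold (95% interval 2.35 to 2.67). Cd9 went the other way, with 454, 553 and 624.6 CPM in CD14-IL1B and 173, 260.4 and 296 in Macro-M2, 2.18-fold (95% interval 2.10 to 2.27) higher in CD14-IL1B. Lgals3 stood at 1666 CPM in Macro-M2 and 1618 in CD14-IL1B.

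In T22 tumors alone 0 of 9 genes were counted between Macro-M2 and Macro-M1, against 0.962% and 0.704% of all genes. Spp1, Cd9 and Fabp5 leaned the other way from the long-term pools. Spp1 stood at 191, 219.5, 205 and 218 CPM in the 4 pools of Macro-M2 and 296, 272, 275 and 286 in those of Macro-M1. The pools did not overlap, and Macro-M1 was 1.36-fold (95% interval 1.29 to 1.43) higher. Cd9 was 1.75-fold (95% interval 1.64 to 1.87) and Fabp5 1.53-fold (95% interval 1.42 to 1.65) higher in Macro-M1, both with ranges apart, where the long-term summed levels had been 1.58-fold and 1.37-fold higher in Macro-M2 with overlapping ranges. Apoe, the highest of its labels in Macro-others (1571, 1820.2, 1566 and 1528 CPM), was within 2-fold in Macro-M2, Macro-M1, CD16-CDKN1C and Macro-others. Over the 21 pairs of T22 labels, with 10.7% of all genes counted on average, Apoe was counted in 13, Trem2 and Abca1 in 12 each, Cd9 in 7, Lgals3 in 6 and Fabp5 in 0. CD14-IL1B again stood apart from Macro-M2, with 4 genes lower and 1 higher (12.8% of all genes were higher and 5.29% lower in Macro-M2). Trem2 was 10.0-fold (95% interval 8.48 to 11.9), Apoe 9.77-fold (95% interval 8.79 to 10.9), Abca1 7.36-fold (95% interval 5.78 to 9.50) and Lpl 15.3-fold (95% interval 8.91 to 29.0) higher in Macro-M2, and Cd9 3.75-fold (95% interval 3.46 to 4.07) higher in CD14-IL1B. Lpl, at 4.65 CPM in CD14-IL1B, passed the filter only through Macro-M2 and had to differ. Epcam moved with Cd9 here too, at 167 CPM in CD14-IL1B and 48.8 in Macro-M2. Krt8 stood at 3.57 and 5.05 and Krt18 at 5.72 and 3.95. Malignant RNA in the amount those keratins show would carry 16.4 of the 451 CPM of Cd9 in CD14-IL1B. In Macro-M2 it would carry 15.9 of 120. The part in the Cd9 difference of RNA that comes with Epcam was not tested.

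In T127 tumors, where Lpl too was under the floor and 8 genes were compared, Apoe had its highest level in CD16-CDKN1C. Cells of that label were shallow in T127, with a median of 4922 UMIs against 11286 in Macro-M2. The pools of CD16-CDKN1C measured 855, 481, 301 and 599.8 CPM of Apoe and those of Macro-M2 237, 180.4, 141 and 213. They did not overlap, and Apoe was 2.76-fold (95% interval 2.57 to 2.97) higher in CD16-CDKN1C. Spp1 was 2.08-fold (95% interval 1.99 to 2.18) higher in Macro-M2, the other gene counted in that pair, where 1.45% of all genes were higher and 0.981% lower in Macro-M2. In CD16-CDKN1C the pools held 1271, 1200, 1099 and 474 CPM of Spp1, so the 2-fold call leans on pool 4. Fabp5 set Macro-M2 apart from Macro-others, at 852, 967, 929.8 and 1037 CPM against 376, 323, 245 and 439, 2.78-fold (95% interval 2.59 to 2.97) higher (1.11% of all genes higher, 2.65% lower). CD14-IL1B was lower than Macro-M2 in 6 of 8 genes (11.7% of all genes higher and 6.86% lower in Macro-M2), by 13.8-fold in Apoe, 12.9-fold in Abca1, 11.5-fold in Trem2, 3.94-fold in Fabp5, 3.43-fold in Spp1 and 3.05-fold in Plin2. Of the 35 Apoe UMIs of CD14-IL1B, 31 lay in pool 1, the 4 pools holding 50.1, 0, 0 and 5.34 CPM. Without pool 1 the folds were 83.9 for Apoe and 17.8 for Trem2. Over the 15 pairs of T127 labels, with 8.41% of all genes counted on average, Apoe was counted in 10, Abca1 in 9, Trem2 in 6, Fabp5 in 5, Spp1 in 4 and Lgals3 in 0.

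The genes divided between the models when T22 and T127 macrophages of the short-term experiment were set against each other within Macro-M2 (670 and 1174 cells). Among the genes whose 2-fold difference the filter did not fix, the lipid carrier gene was higher in T22. Those of osteopontin, the fatty acid chaperone, galectin-3 and CD9 were higher in T127. Of the 9 genes compared 2 were higher and 4 lower in T22, against 4.89% and 6.86% of all genes. Without Lpl, whose 2-fold difference the filter fixed, 1 was higher, Apoe. The median log2 ratio was -0.93 for the 9 genes and -0.10 for all.

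Apoe measured 1259, 1200.4, 1232 and 1185 CPM in the 4 T22 pools and 237, 180.4, 141 and 213 in the 4 T127 pools. Each T22 pool exceeded each T127 pool, and the summed level was 6.27-fold (95% interval 6.01 to 6.53) higher in T22. Lpl measured 64.6, 75.7, 88.8 and 59.9 CPM in T22 and 4.43, 2.64, 3.16 and 3.28 in T127. It was close to 0 in T127 and 21.1-fold (95% interval 15.7 to 28.9) higher in T22, and since it passed the 10 CPM filter only through T22 it had to differ. The receptor gene Trem2, at 448, 494, 544 and 592 CPM in T22 and 257, 270.3, 319 and 273 in T127, also separated without overlap. Its ratio of 1.86-fold (95% interval 1.78 to 1.94) stayed under 2, so it was not counted.

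Spp1 measured 191, 219.5, 205 and 218 CPM in the T22 pools and 2103, 2038, 2156 and 2331 in the T127 pools, 10.4-fold (95% interval 9.88 to 10.9) higher in T127. Fabp5, at 101, 94.3, 82.2 and 100.3 CPM in T22 and 852, 967, 929.8 and 1037 in T127, differed by a like factor, being 9.95-fold (95% interval 9.29 to 10.7) higher in T127. Both genes left a wide gap between the T22 and the T127 pools. Lgals3 measured 646, 647, 775 and 619 CPM in T22 and 2486, 2622, 2795 and 2447 in T127, 3.87-fold (95% interval 3.77 to 3.98) higher in T127. Cd9 measured 116, 139, 131 and 97.4 CPM in T22 and 405, 415, 428 and 416 in T127, 3.46-fold (95% interval 3.25 to 3.70) higher in T127. The lowest T127 pool of both lay above the highest T22 pool.

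Abca1 and Plin2 differed less. Abca1 measured 212, 160.2, 189 and 163 CPM in T22 and 351, 337, 362 and 343 in T127, apart but 1.92-fold (95% interval 1.81 to 2.03) higher in T127 and so under the rule. Plin2 measured 41.6, 40.7, 37.5 and 41.7 CPM in T22 and 46, 48.8, 48.6 and 53.3 in T127, the smallest difference of the 9 genes at 1.21-fold (95% interval 1.07 to 1.38) higher in T127. The cells given the Macro-M2 label also differed in other markers. The summed level of 5 monocyte markers (Ly6c2, Ccr2, Plac8, Vcan and Chil3) was 730.2 CPM in T22 (pools 644 to 807) and 2365 in T127 (pools 2099 to 2613), 5 of 5 above 10 CPM in both. The summed level of 6 neutrophil markers was 24.9 CPM in T22, with 2 above 10 CPM, and 225 in T127, with 4. Adipocyte markers (Adipoq, Plin1, Lep and Cidec) were at 0 in both models. The part of the monocyte and neutrophil markers in these differences was not tested. With only the cells that had a UMI of C1qa, C1qb or C1qc, 2 genes were again higher and 4 lower in T22. Lpl, whose 2-fold difference the filter had fixed, is among the 2. The share of all genes counted in those cells is not given here.

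**Figure D3:**
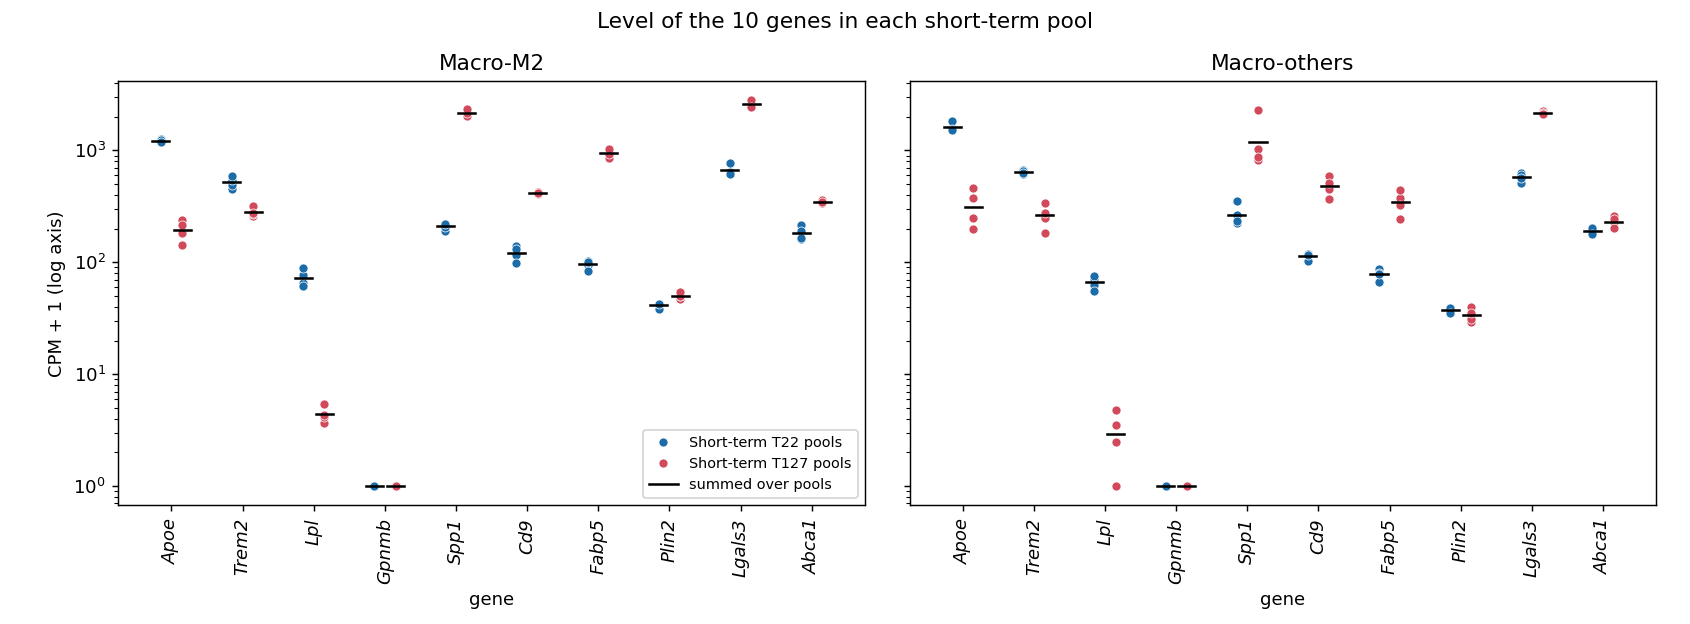
Level of the 10 genes as CPM + 1 (log axis) in each of the 4 short-term T22 pools and 4 T127 pools (points) in Macro-M2 and in Macro-others, with the level summed over pools as a black bar. Apoe and Lpl pools of T22 lie above those of T127, Spp1, Cd9, Fabp5 and Lgals3 pools below them, and Plin2 pools lie near each other.

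Across the labels the division returned in part, with 0 genes higher in T22 in CD14-IL1B and only Spp1 lower in CD14-PF4. Spp1 was lower in T22 in 6 of the 6 labels with enough cells, by 4.03-fold in CD14-IL1B to 12.8-fold in Macro-MKI67 and by 25.2-fold in the keratin-bearing CD14-PF4. The T22 side of the last rests on 63 UMIs, 45 of them in pool 4 (11, 33.9, 73.7 and 161 CPM in the 4 pools), and without T22 pool 4 the fold was 55.6. Lgals3 was lower in 5, Fabp5 in 4, Cd9 in 3 and Abca1 in 2, while Apoe and Lpl were higher in T22 in 5 labels each and Trem2 in 1. Of the Apoe calls, that of CD16-CDKN1C was lost with only C1q-positive cells. That of CD14-PF4 was lost with malignant RNA taken off, by a reading that overshoots in its T22 cells and so cannot decide it. Lpl was under 10 CPM in T127 in each of its 5 labels and passed the filter only through T22, so no result is read from its count. Plin2 was counted in 0 of 6. Because the labels of a model come from the same pools, they do not repeat the comparison independently.

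In Macro-others (1244 and 213 cells, with 5.25% of all genes higher and 9% lower in T22) Apoe measured 1571, 1820.2, 1566 and 1528 CPM in T22 and 460.3, 372, 198 and 249 in T127, 5.26-fold (95% interval 4.91 to 5.65) higher in T22. With only the cells that had a C1q UMI the Apoe log2 ratio was 1.75 in place of 2.39, and the gene was still counted. Trem2 was counted in this label, with 671, 608, 658 and 633 CPM in T22 and 249, 276, 340.4 and 183 in T127, 2.42-fold (95% interval 2.24 to 2.62) higher. In the same cells its log2 ratio was 0.77 in place of 1.27, and it was no longer counted. Spp1 was 4.45-fold (95% interval 4.24 to 4.67), Fabp5 4.40-fold (95% interval 4.02 to 4.81), Cd9 4.22-fold (95% interval 3.91 to 4.54) and Lgals3 3.77-fold (95% interval 3.64 to 3.90) higher in T127, and T127 pool 2 stood out in Spp1 with 2272 CPM. In the proliferating label Macro-MKI67 (330 and 198 cells, with 5.09% of all genes higher and 6.33% lower in T22) Apoe was at 27.1, 36.7, 30.9 and 63.7 CPM in the T127 pools against 536, 633, 567 and 642 in T22, 15.5-fold (95% interval 13.3 to 18.2) higher in T22, the widest Apoe difference of the 5 labels counted. Spp1 was 12.8-fold (95% interval 12.0 to 13.7) and Abca1 2.39-fold (95% interval 2.08 to 2.76) higher there in T127.

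In CD16-CDKN1C (4205 and 402 cells, with 4.74% of all genes higher and 11.8% lower in T22) Apoe was 2.56-fold (95% interval 2.41 to 2.72) higher in T22, the narrowest of the 5 labels counted, with T127 pools of 855, 481, 301 and 599.8 CPM spread widely below T22 pools of 1298, 1484, 1426 and 1296. Many cells of this label were shallow. Of its 4205 T22 and 402 T127 cells, 1643 and 283 were deep enough to be thinned to 3000 UMIs. In Macro-M2 all 670 and 1174 cells were. Whether the Apoe call of CD16-CDKN1C held with only the deeper cells is not given here. With only the cells that had a C1q UMI the Apoe log2 ratio in CD16-CDKN1C was 0.86 in place of 1.35, and the gene was no longer counted. Spp1 stood at -1.59 in those cells in place of -2.23, still counted. Lgals3 was lost as Apoe was, at -0.97 in place of -1.37. Abca1 was 2.58-fold (95% interval 2.36 to 2.81) and Fabp5 4.95-fold (95% interval 4.62 to 5.30) higher in T127. In CD14-IL1B (143 and 144 cells, with 2.37% of all genes higher and 5.95% lower in T22), where Lpl too was under the floor, Spp1 was 4.03-fold (95% interval 3.62 to 4.49) and Lgals3 3.93-fold (95% interval 3.70 to 4.18) higher in T127, and Apoe levels of 125 and 14.1 CPM had overlapping pools, the T127 level being 2.15 CPM without pool 1. In CD14-PF4 (66 and 66 cells, with 3.95% of all genes higher and 3.31% lower in T22) Apoe, Lpl and Spp1 were counted, but the T22 cells carried keratins at 73.9% of the level of T22 malignant cells, which themselves hold Apoe. With malignant RNA read from the keratins taken off, the Apoe log2 ratio there was -6.15 in place of 2.25. The level left in T22 was 0, and Apoe was no longer higher in T22. Malignant RNA read from the keratins would also carry 436 of the 2094 CPM of Spp1 in the T127 cells of CD14-PF4. The reading overshoots in the T22 cells of this label, where it would carry 430.3 CPM of Apoe, 786 of Cd9 and 959 of Fabp5 while the label held 337, 443 and 182. It therefore cannot give the part of malignant RNA in the Apoe difference of CD14-PF4.

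Over the 7 labels together (7861 and 2200 cells, 4.54% of all genes higher and 8.06% lower in T22) 3 genes were higher in T22 and 4 lower. Apoe was 6.73-fold (95% interval 6.54 to 6.93), Lpl 15.3-fold (95% interval 12.6 to 18.8) and Trem2 2.09-fold (95% interval 2.04 to 2.15) higher in T22, and Spp1 was 7.89-fold (95% interval 7.75 to 8.04), Fabp5 6.03-fold (95% interval 5.88 to 6.19), Lgals3 3.57-fold (95% interval 3.53 to 3.61) and Cd9 2.49-fold (95% interval 2.42 to 2.55) higher in T127. Lpl, at 3.82 CPM in T127, again passed the filter only through T22 and had to differ. Trem2 was no longer counted here either with only C1q-positive cells, at a log2 ratio of 0.87. The make-up of the sum differed between the models. By cells, CD16-CDKN1C was the most numerous label in T22 and Macro-M2 in T127. Macro-M1, with 1203 cells in T22 and too few in T127 to compare, entered the sum almost only in T22. The sum weighs labels by their UMIs, and the part of make-up in these folds was not tested.

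**Figure D4:**
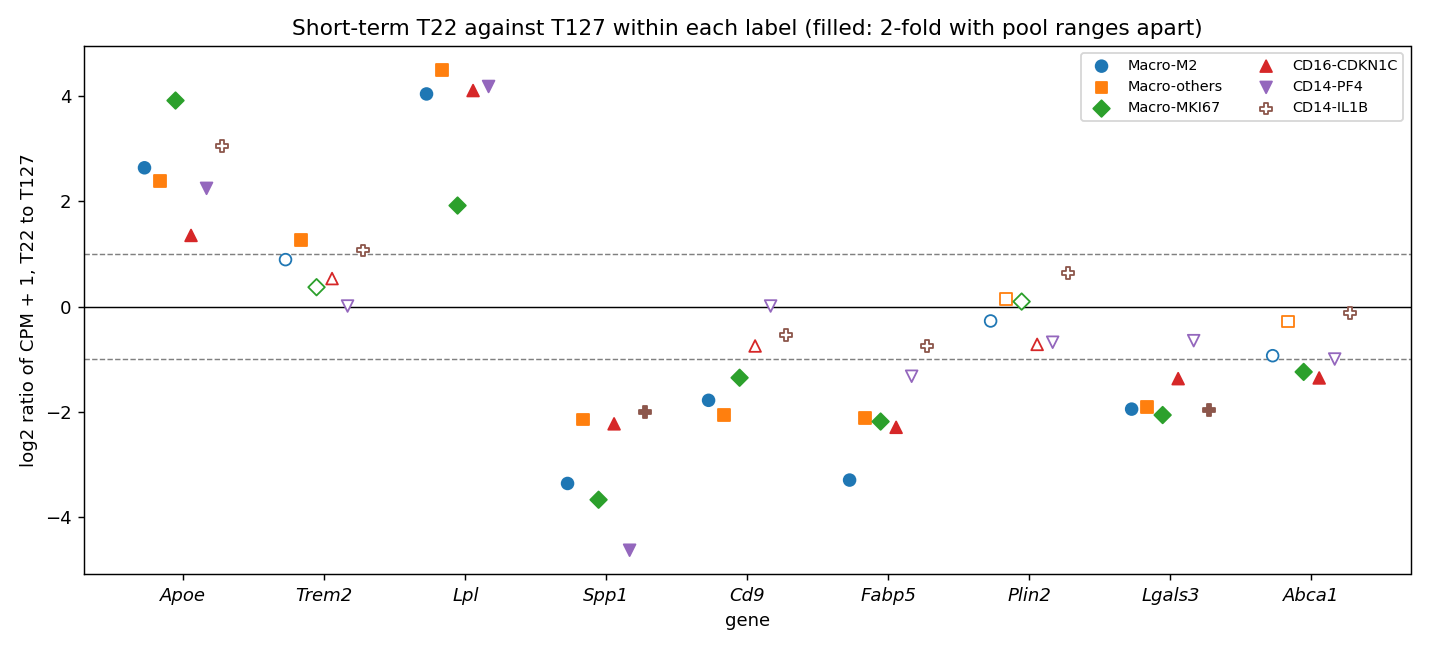
Log2 ratio of CPM + 1 in T22 to T127 for the 9 genes that passed the floor, 1 marker per label, filled where the difference was at least 2-fold with pool ranges apart (dashed lines at 2-fold). Apoe and Lpl lie above 0 and Spp1, Fabp5 and Lgals3 below 0 in the labels shown, and Plin2 stays within 2-fold.

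Because Spp1, Cd9 and Lgals3 of T127, and Apoe and Fabp5 of T22, are abundant in malignant cells, the amount of malignant RNA in the macrophage labels was read from the epithelial keratins Krt8 and Krt18. In T127 Macro-M2 they summed to 19.5 CPM against 1850.0 in T127 malignant cells, 1.06%. Malignant RNA in that amount would carry 47.0 of the 2156 CPM of Spp1, 28.2 of the 2581 of Lgals3 and 21.4 of the 416 of Cd9. Fabp5 was near 0 in T127 malignant cells (0.790 CPM). In T22 Macro-M2, with keratins at 1.49% of the malignant level, 8.70 of the 1219 CPM of Apoe and 19.4 of the 95.2 of Fabp5 would be carried. With that RNA taken off, the ratios in Macro-M2 were 6.22 for Apoe and, inverted, 10.1 for Spp1. The same 6 genes were counted, among them Lpl, whose 2-fold difference the filter had fixed. The 47.0 CPM of Spp1 taken off in T127 lies below the Spp1 level of the T127 T cells given next, and the part of free RNA was not tested. The Fabp5 folds, higher in T127, went from 9.95 to 12.5 in Macro-M2, from 4.40 to 8.97 in Macro-others, where 39.6 of the 77.6 CPM of T22 would be carried, and from 6.03 to 9.24 over the 7 labels. The T22 reading takes the malignant labels together, though Krt8 stood at 251 CPM in Malign_2 and 1855 in Malign_3, and Krt18 at 37.3 and 1612. The amounts carried in T22 would change with the label the RNA came from. In the 619 T22 and 970 T127 cells without a Krt8 or Krt18 UMI the Apoe and Spp1 ratios were 6.25 and 9.91, again with the same 6 genes. Both checks were chosen after the values were seen, and the share of all genes counted is not given for them. Epcam and Cdh1 read differently. T22 Macro-M2 held 48.8 and 14.3 CPM of them, against 749 and 161 in T22 Malign_2 and 2169 and 277 in Malign_3. T127 Macro-M2 held 144 and 135 CPM, against 0.893 and 0.436 in T127 Malign_0, so there they cannot trace malignant RNA. The amounts above hold for the keratins only.

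Lymphocytes gave another reading, since free RNA can enter any droplet. Their levels may also hold RNA of their own, and these parts were not told apart. Spp1 stood at 319.7 CPM in the CD4_Tcm-TCF7 cells of T127 (pools 177 to 622) and at 2.98 in those of T22, against 2156 and 208 in Macro-M2. The NK.cells label of T127 held 1976 CPM of Spp1 (pools 1314 to 2268), near the level of Macro-M2, and that of T22 59.1. B.cells, under the minimum of 50 in both models, held 1309 CPM in T127 (42 cells, pools 165 to 2876) and 4.69 in T22 (38 cells). The summed Spp1 level was thus higher in T127 in CD4_Tcm-TCF7 and NK.cells as well. Apoe was at 22.6 CPM in the CD4_Tcm-TCF7 cells of T22 and 0 in those of T127, Fabp5 at 53.1 and 49.2, and Cd9 at 47.4 and 128. Lgals3 was lower in those of T127, at 258 CPM, than in those of T22, at 1089.7. The T22 value lay above the 667 CPM of T22 Macro-M2, so it cannot serve as a background there. Immune cells other than monocytes and macrophages held 39.2% of the T22 Lgals3 UMIs with 22.8% of all UMIs.

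In Macro-M2 the share of cells with a UMI differed in the same direction as the summed level. With each cell thinned to 3000 UMIs, 68.7% of T22 Macro-M2 cells had an Apoe UMI (pools 67.5 to 70.2%) and 29.4% of T127 cells (pools 25.5 to 33.8%), and without thinning 79.7% and 45.3%. The background in CD4_Tcm-TCF7 cells was 5.73% in T22 and 0 of 86 cells in T127, which allows up to 4.20% (the upper end of the exact interval). Median depths before thinning were 13221 and 11286 UMIs in Macro-M2 and 6674 and 4172 in the T cells, of which 222 in T22 and 118 in T127 were too shallow to be thinned. Apoe shares in both models lay above that background.

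Spp1 was found in 27.6% (95% interval 24.3 to 31.2%) of T22 and 67.3% (95% interval 64.5 to 70.0%) of T127 Macro-M2 cells, against 0.677% and 36.0% (95% interval 26.0 to 47.1%) of the T cells. In T127 the Spp1 share of lymphocytes was high and depended on the label, with Spp1 in 65.6% (95% interval 56.9 to 73.7%) of the T127 NK.cells (median 6574 UMIs before thinning), within counting error of the Macro-M2 share. The T127 Macro-M2 share was thus not above that of NK.cells. How much of the Spp1 in NK.cells was free RNA and how much their own was not tested, nor was the part of free RNA in Macro-M2. Fabp5 was found in 19.6% and 51% of Macro-M2 cells (background 13.2% and 11.6%) and Cd9 in 22.4% and 48.3% (background 12.5% and 24.4%). Lgals3 was found in 64.8% and 94.5%, and in 50.5% and 43.0% of the T cells, which in T22 are no background for it. Lpl was found in 14.6% of T22 and 0.852% of T127 Macro-M2 cells, the latter within the interval its background allows (up to 4.20%). Trem2 shares were 59.3% and 43.8% with a background of 0.812% and 1.16%, and Abca1 shares 33.4% and 49.7% with a background of 4.15% and 12.8%. Plin2 was found in 10.7% and 14.1%, and Gpnmb in 0 of 670 and 0 of 1174 cells, which allows up to 0.549% and 0.314%.

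**Figure D5:**
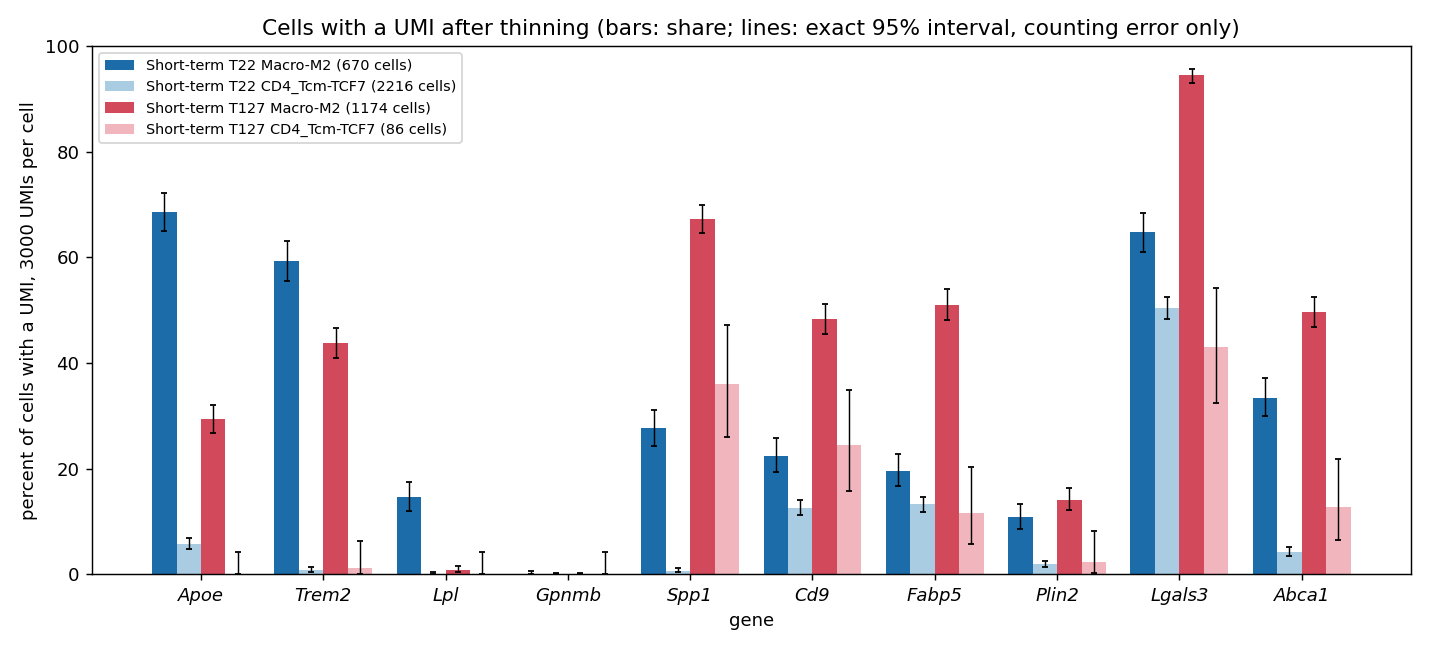
Percent of cells with a UMI of each gene after thinning to 3000 UMIs per cell, in Macro-M2 and in CD4_Tcm-TCF7 cells of T22 and T127 (bars, with the exact 95% interval for counting error). Apoe, Trem2 and Lpl bars are taller in T22 Macro-M2, and those of Spp1, Cd9, Fabp5, Lgals3 and Abca1 in T127 Macro-M2, while the T cell bars of Lgals3, and of Spp1 in T127, are far from 0.

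The joint detection of Apoe and Spp1 in Macro-M2 cells differed in direction between the models. In T22, 46% of thinned Macro-M2 cells had Apoe without Spp1, 4.93% Spp1 without Apoe, 22.7% both and 26.4% neither. In T127 the shares were 14.3%, 52.2%, 15.1% and 18.4%. Spp1 was found in 51.3% of the T127 cells with Apoe and 73.9% of those without (95% intervals 45.9 to 56.7% and 70.8 to 76.9%). In T22 the shares stood the other way round, with Spp1 in 33.0% of cells with Apoe and 15.7% of those without. Cells are not replicates, and this difference between the models was not tested.

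Trem2 and Abca1 went with Apoe in both models. Trem2 was found in 75.7% of T22 Macro-M2 cells with Apoe and 23.3% of those without, and in 60.6% and 36.8% in T127. Abca1 was found in 43.9% and 10.5% in T22, and in 70.4% and 41.0% in T127. In T127 and long-term Macro-M2 cells Cd9 went with Spp1 instead. Of T127 Macro-M2 cells with Spp1, 58.9% had Cd9, against 26.6% of those without, and in the long-term Macro-M2 cells the shares were 44.9% and 19.8%. In T22 they were 26.5% and 20.8%, with overlapping exact intervals (20.3 to 33.5% and 17.3 to 24.7%). Cd9 was rarer among cells with Apoe, at 30.7% against 55.6% in T127 and 20.4% against 43.0% long-term, and stood at 19.1% against 29.5% in T22. Long-term Macro-M2 cells mix the models, which differ in Apoe, Spp1 and Cd9. Malignant cells of T127 hold both Spp1 (4450 CPM) and Cd9 (2030 CPM). The part of model make-up and of malignant RNA in these pairings was not tested. The typical Macro-M2 cell had UMIs of 3 of the 10 genes in T22 and 4 in T127 after thinning, and the richest cell had 8 in both.

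Other genes of lipid handling were read from lists of the same route in Macro-M2, T22 against T127, where 4.89% of all genes were higher and 6.86% lower in T22. Of 9 lipid uptake genes 6 were compared, 1 higher and 1 lower. The fatty acid receptor gene Cd36 measured 79.1 CPM in T22 (pools 56.2 to 112) and 12.6 in T127 (pools 7.38 to 16.4), and the scavenger receptor gene Msr1 68.4 CPM in T22 (pools 63.8 to 75.1) and 160.5 in T127 (pools 137 to 181). Of 14 genes of lipid droplets and hydrolysis 11 were compared, 2 higher and 3 lower. Hilpda, which encodes a hypoxia-inducible droplet protein, measured 84.4 CPM in T22 (pools 66.5 to 95.6) and 706 in T127 (pools 639 to 809.9). G0s2 and Dgat1, an inhibitor of lipolysis and an enzyme of triglyceride synthesis, were also higher in T127, at 38.4 against 1.54 CPM and 64.9 against 14.5 CPM. G0s2, which is also on the neutrophil list above, passed the filter only through T127 and had to differ by 2-fold.

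Of 12 genes of cholesterol efflux and LXR 11 were compared, 3 higher and 0 lower in T22. Apoc1, the neighbour of Apoe in the same apolipoprotein gene cluster, measured 41.4 CPM in T22 (pools 32.6 to 64.2) and 2.95 in T127 (pools 0.947 to 5.26). It passed the filter only through T22 and had to differ by 2-fold. The cholesterol hydroxylase gene Ch25h stood at 62.8 against 16.2 CPM and Mylip, whose product lowers the LDL receptor, at 159.9 against 47.3 CPM. The median log2 ratio of this list was nonetheless -0.42, against -0.10 for all genes. Of 8 genes of TREM2 signalling 7 were compared and 1 was lower in T22, the related receptor gene Trem1 with 20.5 CPM in T22 (pools 17.3 to 26.1) and 202 in T127 (pools 189 to 213). Of 13 lysosomal genes 13 were compared and 1 was lower, the protease gene Ctsl with 96.5 CPM in T22 (pools 86.8 to 108) and 433 in T127 (pools 374 to 493.3). Of 7 genes of fatty acid binding and PPAR 3 were compared and 0 were counted.

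Among 15 partners of the members 12 were compared, 2 higher and 2 lower in T22. Cd44, a receptor of osteopontin, measured 181 CPM in T22 (pools 160.2 to 204) and 736 in T127 (pools 699 to 768), higher in T127 as Spp1 was. The integrin subunit gene Itgb5, whose product is another osteopontin receptor, went the opposite way, with 241 CPM in T22 (pools 224 to 267) and 51.4 in T127 (pools 45.9 to 58.2). Lag3, a receptor reported to bind galectin-3, stood at 32.3 against 4.22 CPM and likewise had to differ by 2-fold, having passed only through T22. Over the 7 labels together, with 4.54% of all genes higher and 8.06% lower in T22, the counts higher and lower were 1 and 2 for uptake, 2 and 3 for droplets, 0 and 0 for fatty acid binding, 3 and 1 for efflux, 0 and 1 for TREM2 signalling, 0 and 1 for the lysosome and 2 and 3 for the partners. These counts include G0s2, Apoc1 and Lag3, whose 2-fold difference in Macro-M2 the filter had fixed. Between long-term Macro-M2 and Macro-M1 2 of the 61 genes compared over these 7 lists were counted, both higher in Macro-M2 (3.28%, with 2.03% of all genes higher). The phospholipid transfer protein gene Pltp measured 206 against 85.0 CPM and Trem1 52.9 against 20.0 CPM.

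The genes whose long-term pattern was most like that of each member, by Pearson's r of log levels over 21 deposited labels among 9720 genes, are given here. The labels share pools and free RNA, so r is given as a description. Trem2 was near to C1qc (r = 0.987), a complement gene, and Ms4a4a (0.986), a gene of the MS4A membrane family. Apoe was nearest to Vcam1 (r = 0.952), Apoc2 (0.919) and Adamdec1 (0.913), and Lpl to Abca9 (r = 0.967), Prkar1b (0.95) and Itgb5 (0.95). Abca1 was nearest to Slc7a7 (r = 0.928), Fmn1 (0.898) and Brox (0.877) and Plin2 to Mzt2 (r = 0.883), Rnpep (0.864) and Gsto1 (0.860). Spp1 was nearest to S100a4 (r = 0.837), Scin (0.817) and Eef2kmt (0.787), Cd9 to Zfpl1 (r = 0.944), Baiap2 (0.921) and Tnfrsf12a (0.916), Fabp5 to Pianp (r = 0.822), Adgrl2 (0.810) and Mgmt (0.806) and Lgals3 to Kcnn4 (r = 0.763), Tspo (0.763) and Adam8 (0.762). Within the set the closest pair was Apoe and Trem2 (r = 0.861), followed by Trem2 and Lpl (0.797), and the most opposed was Spp1 and Fabp5 (-0.481). Fabp5 went with Apoe (0.563) and Lpl (0.454) and not with Lgals3 (-0.384), so over all labels it did not side with Spp1. Apoe and Spp1 had an r of -0.106.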

How the data were processed

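Single cells of dissociated T22 and T127 tumors were captured in 16 pools with 3′ v3.1 chemistry (5000 cells targeted per sample, per the labels), giving 34755906 to 55600377 UMIs per pool. Per the labels, the authors aligned reads with Cell Ranger 6.0.0 to GRCm38, and their methods add that introns were included, that cells were filtered on genes and mitochondrial share and that Scrublet removed doublets. The deposited raw files hold UMI counts, not normalized, for 32285 genes per cell, and a table for each pool gives the cluster label of each cell. Normalized tables of fewer genes were not used. The labels name human as the organism, but tumors and gene names are of mouse.

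From the deposited counts, UMIs were summed per label and pool and divided by all UMIs of those cells. Long-term barcodes present in several pools were kept once, at the deepest copy. A label needed 50 cells and a pool value 5. Genes with a mean of at least 10 CPM were compared across the whole table, with a pseudocount of 1 CPM for log2 ratios and a call at 2-fold with pool ranges apart. Intervals are exact at 95% (Poisson for levels, Clopper-Pearson for shares, conditional binomial for ratios). For shares of cells, cells were thinned to 3000 UMIs and shallower ones left out. No doublet caller was run here, but 1 alternative drops the 5% of cells with most UMIs. The comparison code was tested on simulated data.

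The 10 genes, the lists and the tests were chosen with earlier results of these data known. Named are all 10 genes, up to 3 counted genes per list by absolute log2 ratio, the 3 genes of highest r for each member (over genes of at least 20 CPM in a label), and markers by their summed level, apart from 3 genes that are not reported here and were left out of the marker sums. Krt8 and Krt18 were picked after their values had been seen, because T127 malignant cells lacked Cdh1. Treatment and transplant setting could not be compared, and promoters and other sequence were not analysed here. Alternatives were a minimum of 3000 UMIs, no top 5%, a pseudocount of 10 CPM, means over cells, a denominator without mitochondrial and ribosomal protein genes, a fold of 1.5, each pool left out in turn, all cells as deposited, no long-term pools 1 to 3, C1q-positive cells only, other thinning, a floor of 50 CPM and 2 added later. Computation used matplotlib 3.10.9, pandas 2.3.3, scipy 1.17.1, numpy 2.4.6 and Python 3.11.15.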

Additional observations from a re-analysis of the deposited data

Results flagged for a closer look

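In 9 of 122 groups of pools 1 pool stood far from the others of its label by Dixon's criterion, which chance alone meets in about 1 in 20 groups. In the long-term pools Lpl in Macro-MKI67 was at 82.0 CPM in pool 3 and 26.6 to 39.2 in the others. In T127, Fabp5 in CD16-CDKN1C was at 1058 CPM in pool 2 and 531 to 593 in the others, Plin2 in Macro-MKI67 at 14.0 CPM in pool 1 and 27.5 to 30.2 in the others, Lgals3 in Macro-others at 2235 CPM in pool 1 and 2133 to 2150.2 in the others, and Spp1 in Macro-others at 2272 CPM in pool 2 and 823 to 1031 in the others. In T22, Trem2 in CD16-CDKN1C was at 635 CPM in pool 4 and 572 to 582 in the others, Plin2 in Macro-MKI67 at 16.1 CPM in pool 1 and 29.2 to 31.5 in the others, Spp1 in Macro-MKI67 at 159.6 CPM in pool 3 and 199 to 206 in the others, and Apoe in Macro-others at 1820.2 CPM in pool 2 and 1528 to 1571 in the others.

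In 4 cases the pools of T22 and of T127 lay on opposite sides of an equal level between a pair of labels, a difference that was not tested. The ratio of Macro-M2 to CD16-CDKN1C was 0.736 in T22 and 1.51 in T127 for Cd9, and 1.16 and 0.848 for Plin2. The ratio of Macro-M2 to Macro-MKI67 was 1.81 in T22 and 0.350 in T127 for Lpl, and 0.753 and 1.63 for Fabp5. In T127 Lpl stood at 3.37 CPM in Macro-M2 and 9.65 in Macro-MKI67, under the 10 CPM floor.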

How the results depend on the processing

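Of 1833 recomputed values 1734 were marked as the same, 98 as moved and 1 as reversed. The marks do not say whether a gene was still counted. With only C1q-positive cells, Apoe in CD16-CDKN1C was marked as the same though no longer counted. Over the alternatives the Macro-M2 log2 ratio of T22 to T127 was 2.38 to 2.75 for Apoe, -3.39 to -2.92 for Spp1 and -3.63 to -3.19 for Fabp5, and the counts of members in Macro-M2, Macro-others, Macro-MKI67 and the 7 labels together moved by no more than 1.5 times. For long-term Macro-M2 against Macro-M1 the Spp1 log2 ratio was 1.32 to 1.63, but without the top 5% of cells by UMIs the ranges met and the genes higher went from 1 to 0. At a fold of 1.5 the genes lower there went from 0 to 1 and, in T22, from 0 to 2. In CD16-CDKN1C the genes higher in T22 went from 2 to 1 with only cells with a C1q UMI. In CD14-IL1B, with 1 pool left out, the genes higher in T22 ranged from 0 to 2 (2 without T22 pool 1 and 1 without T127 pool 1), and in CD14-PF4 the genes lower ranged from 1 to 2 (2 without T22 pool 3 and 2 without T127 pool 1), which is also 2 with the mean over cells of CPM. Of the alternatives chosen after seeing the data, malignant RNA taken off gave 1 gene lower in CD14-IL1B (from 2) and 1 higher in CD14-PF4 (from 2), where the Apoe log2 ratio reversed to -6.15 because the level left in T22 was 0. Only cells without a Krt8 or Krt18 UMI gave 1 higher and 1 lower in CD14-IL1B (from 0 and 2). Of the 98, 18 moved without thinning and 17 with thinning to 5000 UMIs. Except where stated, the cause was not tested.

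No paired analysis was possible because, between T22 and T127, pool numbers name different captures, and no test was run. Labels of 1 experiment share their pools, and a gene counted there, with pool ranges apart, keeps its direction within each pool by construction. Motifs in promoters were not run. CD14-PF4 held 66 cells in each model and the T127 T cells 86 after thinning, which limits the precision of their values.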
